A study of Mus musculus with 16 samples.

Results

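Cultured embryonic dorsal root ganglion neurons (the sensory neurons that detect touch, temperature, itch and pain) were compared after nocodazole and after vehicle, both without a kinase inhibitor. The comparison used the 4 libraries named DMSO_Noc and the 4 named DMSO_DMSO, which are 8 of the 16 libraries of the series, and it covers all 19156 genes that had enough counts to test. The cells came from CD1 mouse embryos and were used at 6 days in vitro. They grew on poly-D-lysine and laminin in medium with nerve growth factor, 5-fluoro-2’-deoxyuridine and uridine, and both groups shared these conditions. Vehicle cultures (DMSO_DMSO) received DMSO and, 15 min later, DMSO again. Nocodazole cultures (DMSO_Noc) received DMSO and, 15 min later, 200 nM nocodazole, and the second treatment lasted 16 h. The remaining libraries, 4 of DLKi_DMSO and 4 of DLKi_Noc, had the DLK inhibitor GNE3511 at 500 nM as the pretreatment. They enter here through the choice of genes to test, the scaling, the shared estimate of spread and 1 comparison at the end. The age of the embryos and the number of animals are not given in the sources used here. Nothing in the labels ties each replicate to its own culture or animal. All p-values therefore compare differences with the variation among these libraries, part of which may be technical.

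Nocodazole binds tubulin dimers and keeps them from joining microtubules, the tracks on which axonal cargo moves. Loss of microtubules in sensory neurons is known to act as a damage signal that reaches the nucleus through the kinase DLK and JNK, and to raise stress and AP-1 genes while free tubulin lowers tubulin messages. Those 3 groups were left out of the lists of largest changes, in log2 and in CPM. Counts of genes, family counts, promoter shares and marker sums include them. The results below mainly concern other genes: channels, receptors, adhesion and matrix genes, transporters, metabolism, transcription factors, RNA genes and organelles.

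Sequencing depth ran from 30987962 to 43321421 counts per library. Levels are given as CPM, counts scaled to a common library total, and group values are means ± SD of 4 libraries. In each sentence on change, "rose" and "fell" mark genes with an edgeR adjusted p below 0.05 over all tested genes, and the log2 change is nocodazole minus vehicle. Neuron markers were abundant in both groups, with a summed level of 17787 to 19049 CPM in vehicle and 14495 to 17595 CPM in nocodazole libraries. Markers of sensory neurons summed to 6752 to 7379 and 6057 to 6292 CPM. Of the 12 neuron markers 1 rose and 4 fell (33.3%), a tubulin gene among them (log2 change -1.60). Of the 17 tested sensory neuron markers 2 rose and 7 fell (41.2%). Over all tested genes 19.0% fell. Markers of other cells were low: those of Schwann cells and satellite glia summed to 194 to 221 and 119.6 to 171 CPM, those of fibroblasts to 75.6 to 97.1 and 71.3 to 119.6 CPM, and those of pericytes and smooth muscle to 4.72 to 6.36 and 4.19 to 5.33 CPM. The sum for glia came mostly from S100b, Mbp and Cnp. Of the 11 tested fibroblast markers 2 rose and 1 fell, of the 11 glial markers Apoe and Erbb3 rose and Mbp and Cnp fell, and of the 8 markers of pericytes and smooth muscle none was called. The share of counts from the mitochondrial genome was 0.765 to 1.07% in vehicle and 0.875 to 1.5% in nocodazole libraries, highest in nocodazole replicates 1 and 2. Leaving out these 2 libraries is an alternative chosen after seeing the data, and the calls of named genes that it ended are given with the gene. This alternative made fewer calls everywhere, with 2728 rises and 2911 falls among 19890 tested genes, in place of 3556 and 3631 among 19156. Family counts given for it below are to be read beside these numbers. Because whole cultures were sequenced, fewer cells of a type and less of an RNA per cell cannot be told apart. The Apoe call ended without nocodazole replicates 1 and 2 (log2 change 0.78, edgeR adjusted p = 0.11).

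Rises and falls were called in similar numbers. Of the 19156 genes, 3556 rose (18.6%) and 3631 fell (19.0%), together 37.5%. A change of at least 2-fold was seen in 1231 of the rises (6.43% of the tested genes) and 702 of the falls (3.66%). In 7067 genes (36.9%) the 4 libraries of one group all lay above the 4 of the other. Families and lists below are set beside these shares. Their members were chosen with earlier results of these data known, so their counts are a description and not a test. Classes of gene were counted separately. Of 14106 protein-coding genes, 2745 rose and 3243 fell (median log2 change -0.0279). With protein-coding genes scaled and tested alone, 3135 rose and 2948 fell, so the excess of falls depended on the scaling. Of 2157 long noncoding genes, 351 rose and 221 fell (median 0.12), and of 1308 pseudogenes 129 rose and 51 fell (median 0.13).

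Large changes are described for called genes outside the stress, AP-1 and tubulin groups that had at least 5 CPM in the higher group and no overlap between groups. Within these limits the steepest rises included genes that were almost silent in vehicle cultures. Such genes met the limit of 5 CPM through the nocodazole libraries alone. Bpifc (ENSMUSG00000050108.13), of the family of lipid-binding BPI proteins, lay at 0, 0.0293, 0.322 and 0.124 CPM in the 4 vehicle libraries and at 4.25, 1.68, 7.89 and 7.74 CPM in the 4 nocodazole libraries. Il6ra (ENSMUSG00000027947.12), the receptor for interleukin-6, lay at 0.0311, 0, 0.415 and 0.217 CPM and at 6.37, 5.8, 8.49 and 8.42 CPM. In both genes every nocodazole library was above every vehicle library, as the choice of genes required. The log2 changes were 5.33 ± 0.69 (SE, edgeR adjusted p = 1.8e-05) and 5.32 ± 0.54 (SE, edgeR adjusted p = 1.5e-06). Tgif1, a homeodomain repressor of TGF-beta and retinoid signalling, lay at 0.156, 0.176, 0.346 and 0.186 CPM and at 9.52, 8.53, 5.29 and 6.41 CPM (log2 change 5.04 ± 0.57, SE). Arid5a, an RNA-binding protein that stabilises inflammatory messages such as that of interleukin-6, lay at 2.61, 1.7, 8.27 and 4.31 CPM and at 52.9, 46.2, 89 and 58.7 CPM (log2 change 3.84 ± 0.41, SE). It was the most abundant of these genes after nocodazole.

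The other large rises came from varied families. Snx33, a sorting nexin of endocytosis, went from 0.413 ± 0.281 to 12.4 ± 2.19 CPM (log2 change 4.84). Kcnj6, a G-protein-gated inward rectifier potassium channel, went from 0.432 ± 0.0477 to 7.22 ± 2.22 CPM (4.05), and Cftr, the chloride channel mutated in cystic fibrosis, from 0.307 ± 0.0884 to 5.14 ± 0.222 CPM (4.04). Itga5, the integrin chain of the fibronectin receptor, went from 0.576 ± 0.198 to 7.52 ± 1.69 CPM (3.69). Afap1l2, an adaptor of Src and actin, had a log2 change of 3.75, and Mamdc2, a secreted matrix protein, one of 3.41. Fa2h, which hydroxylates fatty acids of myelin lipids, went from 0.611 ± 0.199 to 6.19 ± 0.86 CPM (3.34), and Slc16a10, a carrier of aromatic amino acids, from 0.805 ± 0.249 to 8.12 ± 1.18 CPM (3.32). Fam167a, Lhfpl2 and Tmem132c completed the 15 largest, with log2 changes of 4.22, 3.51 and 3.40. For Fam167a the groups were 0.812 ± 0.332 and 15.5 ± 4.01 CPM and for Lhfpl2 1.62 ± 0.398 and 18.7 ± 3.91 CPM.

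Among the 15 steepest falls, 6 encode receptors or channels. Npy2r, a receptor for neuropeptide Y, lay at 4.23, 7.06, 4.38 and 5.18 CPM in the vehicle libraries and at 0.11, 0.0897, 0.453 and 0.325 CPM in the nocodazole libraries (log2 change -4.41 ± 0.64, SE, edgeR adjusted p = 5.8e-05). Oprk1, the kappa opioid receptor, lay at 4.6, 5.36, 6.54 and 7.2 CPM and at 0.441, 0.509, 1.24 and 0.488 CPM (-3.14 ± 0.54, SE). Htr1b, a serotonin receptor targeted by triptan migraine drugs, lay at 47.6, 58.7, 48.6 and 56.3 CPM and at 6.26, 4.61, 10.2 and 12.3 CPM (-2.67 ± 0.36, SE). The 2 groups did not overlap in any of the 3 genes, as the choice of genes required. P2ry1, an ADP receptor, went from 7.82 ± 1.39 to 1.21 ± 0.228 CPM (-2.69), Chrm1, a muscarinic acetylcholine receptor, from 5.34 ± 0.682 to 0.845 ± 0.574 CPM (-2.65), and Kcnj3, a partner of Kcnj6 in G-protein-gated potassium channels, from 17.9 ± 2.01 to 3.03 ± 2.21 CPM (-2.56). Kcnj3 and Kcnj6 thus moved in opposite directions. Adamts15, a matrix protease that cuts proteoglycans, lay at 23.8, 24.1, 23.9 and 29.7 CPM and at 0.524, 0.778, 1.63 and 2.63 CPM (log2 change -4.21).

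The remaining large falls were those of Grhl3, a Grainyhead transcription factor (14.3 ± 2.21 to 1.39 ± 0.658 CPM, log2 change -3.36), and Lrfn2, a synaptic adhesion protein (17 ± 1.7 to 2.76 ± 0.378 CPM, -2.63). Prag1, a pseudokinase, went from 25.1 ± 3.89 to 3.57 ± 0.735 CPM (-2.81), and A4galt, a glycosphingolipid synthase, from 19.5 ± 2.67 to 2.92 ± 1.3 CPM (-2.75). Palmd, Mob3b, Scml4 and Vwc2l had log2 changes of -3.19, -2.74, -2.52 and -2.48.

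**Figure D1:**
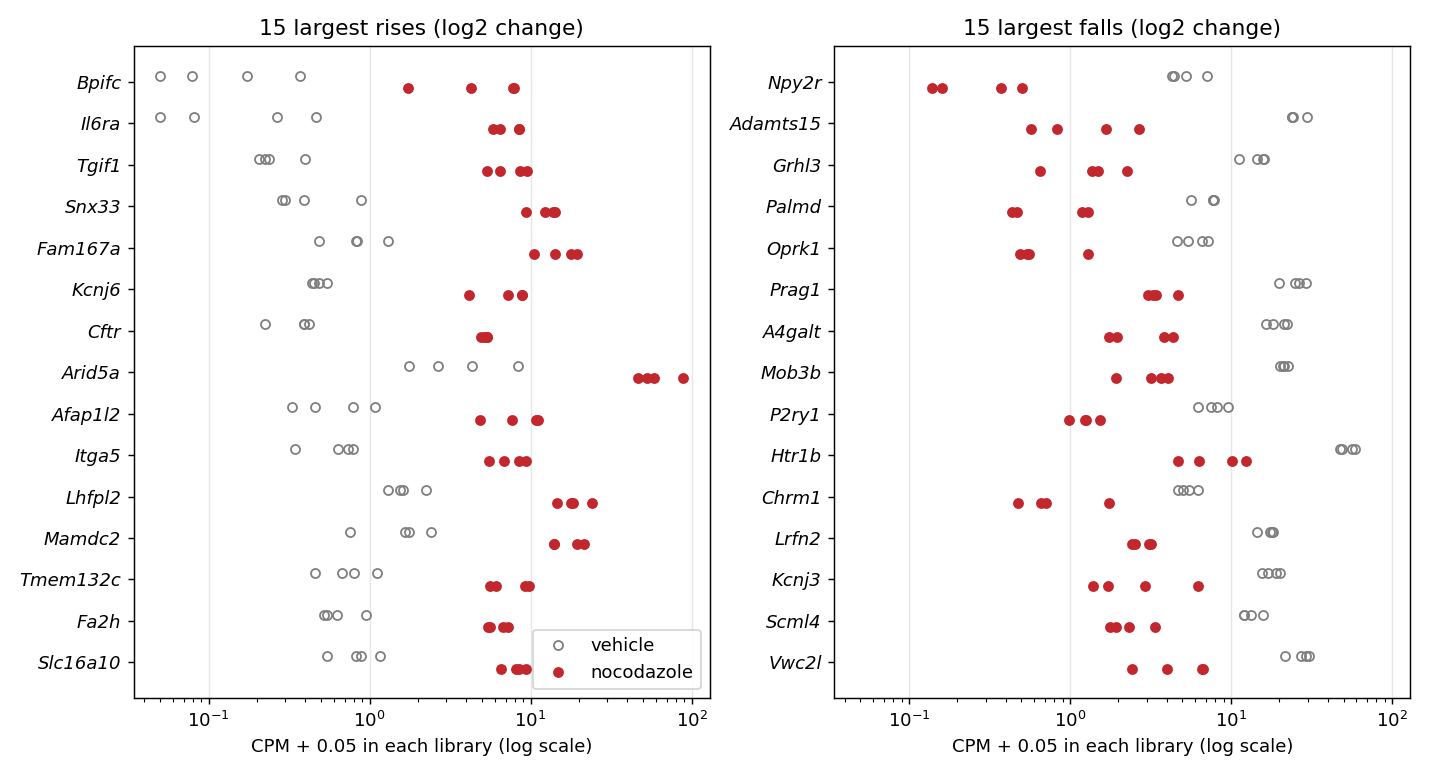
CPM plus 0.05 of each library on a log axis. Shown are the 15 genes with the largest rises (left) and the 15 with the largest falls (right). They are called genes outside the stress, AP-1 and tubulin groups, at 5 CPM or more in the higher group and without overlap. Vehicle libraries are open circles and nocodazole libraries filled circles. In every gene shown the 4 libraries of one group lie apart from the 4 of the other, as the choice of genes required. Arid5a reaches the highest level among the rises.

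By absolute abundance, again without the stress, AP-1 and tubulin groups, the picture was another. The largest gains in mean CPM among protein-coding genes were in Ank2, the ankyrin that ties membrane proteins to spectrin along the axon (3881 ± 449 to 4681 ± 403 CPM, log2 change 0.27), Dst, a giant linker between cytoskeletal filaments (2069 ± 147 to 2739 ± 154 CPM, 0.40), and Dync1h1, the dynein motor heavy chain (3256 ± 237 to 3866 ± 440.3 CPM, 0.25). The groups overlapped for Ank2 and Dync1h1. The Ank2 call was lost without vehicle replicate 3 or 4 or nocodazole replicate 1, 3 or 4 (edgeR adjusted p = 0.06 to 0.14). The Dync1h1 call was lost without vehicle replicate 2, 3 or 4 or nocodazole replicate 3 or 4 (edgeR adjusted p = 0.064 to 0.18). Vgf, a secreted peptide precursor induced by neurotrophins, lay at 317, 334, 214 and 266 CPM and at 981, 975, 616 and 765 CPM (1.56 ± 0.34, SE, edgeR adjusted p = 0.002). Ndrg1, a gene known for induction by low oxygen and for its role in myelinated nerve, lay at 81.5, 67.5, 93.6 and 86.6 CPM and at 421, 386, 477 and 492 CPM (2.43 ± 0.16, SE). Neither gene overlapped between groups. Igsf9b, Prune2, Slc38a1, Vim and Sox11 made up the rest of the 10 largest gains, with log2 changes from 0.40 (Prune2) and 0.48 (Vim, an intermediate filament) to 1.58 (Sox11). The Dync1h1 call also ended without the filter on low counts (edgeR adjusted p = 0.056) and with the replicate number as a block (edgeR adjusted p = 0.063). The Dync1h1 log2 change was 0.38 without nocodazole replicates 1 and 2.

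The largest losses in CPM included 2 lipid enzymes, Scd2, a fatty acid desaturase (3324 ± 345 to 2643 ± 365 CPM, log2 change -0.33), and Hmgcs1, which makes a precursor of cholesterol (1652 ± 235 to 1245 ± 170.5 CPM, -0.41), both with overlapping groups. The Scd2 call was lost without vehicle replicate 1, 2 or 4 or nocodazole replicate 3 or 4 (edgeR adjusted p = 0.0533 to 0.091). The Hmgcs1 call was lost without vehicle replicate 1, 2 or 4 or nocodazole replicate 1, 3 or 4 (edgeR adjusted p = 0.055 to 0.0966). It was also lost with the replicate number as a block (edgeR adjusted p = 0.0507). Map1a, a microtubule-associated protein, went from 2972 ± 80.9 to 2414 ± 193 CPM (-0.30). Lifr, the receptor for leukaemia inhibitory factor, lay at 1083, 1091, 856 and 919.5 CPM and at 564, 586, 463 and 545 CPM (-0.87 ± 0.11, SE), with no overlap. Plxna2, a semaphorin receptor, went from 737 ± 54.1 to 329 ± 72.3 CPM (-1.16), and Rgs4, which shuts off G-protein signals, from 570.2 ± 34.7 to 258 ± 59.8 CPM (-1.14). Kif26b, Pirt and Prdm12 were also among the 10, with log2 changes of -1.37, -0.36 and -0.78. The Pirt call was lost without nocodazole replicate 2 (edgeR adjusted p = 0.0533). The calls of Map1a and Pirt ended without nocodazole replicates 1 and 2, at log2 changes of -0.23 and -0.32 and an edgeR adjusted p of 0.11 and 0.12. The Scd2 log2 change was -0.51 without nocodazole replicates 1 and 2.

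Promoter sequence was read for the tested genes. RefSeq starts (GRCm38.p6) were found for 11776 of 19137 tested symbols, with 15044 windows of 250 bases before a start, and 8 short motifs were searched on both strands. Letters TGATGNAA, the composite site known to bind CHOP with ATF factors, stood in 2.04% of all windows, 3.7% of those of genes that rose and 1.5% of those of genes that fell, and 4.34% and 2.47% of those of genes that did so by at least 2-fold. Letters TGANTCA, the AP-1 site, stood in 4.27%, 5.57% and 3.43%, and 7.62% and 4.37% at 2-fold, in the same order. TGACGTCA (the cyclic AMP element) stood in 2.45%, 2.94% and 1.7%, and 1.99% and 0.951% at 2-fold, and CACGTG (the E-box) in 7.95%, 8.92% and 6.86%, and 7.5% and 6.27% at 2-fold. TCACGTGA, the core of the CLEAR element of lysosomal genes, contains the E-box and stood in 1.35%, 1.76% and 0.939%, and 0.703% and 0.19% at 2-fold. The share of the cyclic AMP element, the E-box and the CLEAR core was thus above that of all windows among all rises and below it among the rises of at least 2-fold. CATTCCA (a TEAD site) stood in 2.72%, 3.32% and 2.23%, and 4.22% and 2.47% at 2-fold, TTATGTAA (the D-box) in 0.512%, 0.657% and 0.499%, and 0.938% and 0.76% at 2-fold, and CCAAT in 34.8%, 32.5% and 35.7%, and 32.8% and 34.2% at 2-fold. A match describes the letters and is not a measured binding site. Sequences are printed 5′ to 3′ on the strand of the gene. The 5 stretches below were chosen because each belongs to a gene described here and holds the motif named for it (in capitals): the largest rise within the limits above (Bpifc, AP-1 site), the most abundant of the large rises (Arid5a, composite site on the opposite strand), a lysosomal enzyme gene (Gla, 2 CLEAR cores), a clock gene (Per1, E-box) and the neuropeptide receptor gene that rose (Calcrl, composite site). The Per1 stretch also holds a CCAAT, in lower case.
Bpifc (chr10:86011861-86011960, minus strand): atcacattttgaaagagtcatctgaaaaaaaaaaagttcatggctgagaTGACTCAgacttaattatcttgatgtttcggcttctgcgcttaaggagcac
Arid5a (chr1:36307533-36307632, plus strand): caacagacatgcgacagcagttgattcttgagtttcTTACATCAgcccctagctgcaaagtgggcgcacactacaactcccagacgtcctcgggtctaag
Gla (chrX:134601156-134601255, minus strand): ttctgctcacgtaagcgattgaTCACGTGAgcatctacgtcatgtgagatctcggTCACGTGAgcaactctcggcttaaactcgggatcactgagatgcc
Per1 (chr11:69098749-69098848, plus strand): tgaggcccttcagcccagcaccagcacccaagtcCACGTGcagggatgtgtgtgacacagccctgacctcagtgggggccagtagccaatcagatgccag
Calcrl (chr2:84425287-84425386, minus strand): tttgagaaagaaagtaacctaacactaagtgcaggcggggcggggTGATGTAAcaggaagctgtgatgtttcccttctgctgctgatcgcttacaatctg

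Voltage-gated sodium, potassium and calcium channel genes fell more often than they rose. Of the 14 tested voltage-gated sodium channel genes, whose products start and carry the action potential, 13 fell and none rose (median log2 change -0.68), against 19.0% of all tested genes. Scn11a, the persistent-current channel of nociceptors, lay at 101, 116, 110.2 and 117 CPM and at 49.6, 40.9, 93.5 and 62.4 CPM (-0.85 ± 0.28, SE). The groups did not overlap. The Scn11a call was lost without vehicle replicate 2 or 4 or nocodazole replicate 1 or 2 (edgeR adjusted p = 0.0516 to 0.078). Of 70 potassium channel genes, 30 fell and 9 rose (median -0.28), and the second largest fall at 5 CPM or more, after Kcnj3, was in Kcnk18, the leak channel TRESK of sensory neurons (7.28 ± 0.988 to 1.78 ± 1.09 CPM, -2.04). Kcnh4 rose less than Kcnj6, from 8.29 ± 0.406 to 13.2 ± 0.318 CPM (0.67). Among 23 voltage-gated calcium channel genes, 11 fell and 3 rose (median -0.30). Cacna1e, the pore of R-type channels, lay at 87.1, 85, 84.6 and 64 CPM and at 228, 226, 188 and 190.2 CPM (1.38 ± 0.20, SE), with every nocodazole library above every vehicle library. Without nocodazole replicates 1 and 2, the libraries with the highest mitochondrial share (an alternative chosen after seeing the data), 7 calcium channel genes fell. Of the Cacng genes, auxiliary subunits that also escort AMPA receptors, Cacng3 rose (8.45 ± 1.54 to 21.4 ± 3.07 CPM, 1.34) while Cacng2 fell (76.9 ± 5.65 to 34.5 ± 10.2 CPM, -1.16) and Cacng8 fell (-1.23). The calls of Cacng8 and Scn11a ended without nocodazole replicates 1 and 2, at log2 changes of -0.82 and -0.51 and an edgeR adjusted p of 0.0996 and 0.26.

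Among ligand-gated channels the families differed, and the falls were most frequent in glutamate receptor genes. Of 23 glutamate receptor genes, 13 fell and none rose (median log2 change -0.52). Grin2b, an NMDA receptor subunit, lay at 57.4, 44.2, 35.7 and 35.3 CPM and at 9.35, 11.1, 14.5 and 15.5 CPM (-1.77 ± 0.23, SE, edgeR adjusted p = 2.1e-05), and Grin3a, another, went from 45.3 ± 7.95 to 18.7 ± 1.5 CPM (-1.28). The groups did not overlap in either. Without nocodazole replicates 1 and 2 the number of glutamate receptor genes that fell was 7. Nicotinic receptor genes had 4 falls and 2 rises among 10 tested members, with Chrna7 at 34.3 ± 5.95 and 16.7 ± 3.96 CPM (-1.04) and Chrna4 at -1.10. Acid-sensing and P2X channels, which respond to protons and ATP, counted 4 members down and 3 up out of 9. Asic1 fell from 132 ± 10.1 to 71.5 ± 1.72 CPM (-0.89), Asic3 had a log2 change of -0.83 with overlapping groups, and P2rx3, the ATP receptor of nociceptors, rose from 452 ± 54.5 to 609 ± 51 CPM (0.43). The Asic3 call was lost without vehicle replicate 1, 2, 3 or 4 or nocodazole replicate 1, 2 or 4 (edgeR adjusted p = 0.058 to 0.13). Chloride and anoctamin channel genes were split, with 4 rises and 4 falls among 14, led by Ano3 (21 ± 2.83 to 5.73 ± 1.45 CPM, -1.87) on one side and the lysosomal chloride exchanger Clcn7 (58.7 ± 1.93 to 85.5 ± 6.45 CPM, 0.54) on the other. GABA and glycine receptor genes fell in 5 of 19 cases (26.3%) with no rise, and 18 of the 19 changes were negative (median -0.36). Their share of falls did not reach 1.5 times the background. TRP and Piezo channel genes rose in 4 and fell in 3 of 17, shares near those of all tested genes. The calls of P2rx3, Asic3, Chrna4 and Chrna7 ended without nocodazole replicates 1 and 2, at log2 changes of 0.32, -0.41, -0.71 and -0.78 and an edgeR adjusted p of 0.056, 0.4, 0.086 and 0.08. The Asic3 call also ended with DESeq2 (adjusted p = 0.067) and with protein-coding genes tested alone (edgeR adjusted p = 0.057). The Asic3 log2 change was -1.33 without nocodazole replicate 3.

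Genes for the axon initial segment and nodes of Ranvier, where channels are clustered, overlapped with these families. They showed 13 falls against 3 rises in 29 tested genes (median log2 change -0.22). Lgi3, a secreted partner of axonal potassium channels, went from 35.1 ± 4.84 to 13 ± 3.99 CPM (-1.44), while Dlg2, a scaffold at the juxtaparanode, rose from 8.04 ± 1.09 to 21.7 ± 2.18 CPM (1.43) and Kcnq3, of the M-current, from 27.4 ± 1.46 to 41.3 ± 4.85 CPM (0.59). Calcium handling and calcium-binding protein genes had 16 falls and 4 rises among 47 tested members. Ryr3, a calcium release channel, had a log2 change of -0.99, and Camk2a one of -0.78 while its paralog Camk2d rose by 0.31. ATPase pump genes counted 7 members down and 2 up out of 18, with Atp1b3, a sodium pump subunit, at 162 ± 10.5 and 81.5 ± 3.1 CPM (-0.99) and its regulator Fxyd5 at -1.26.

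**Figure D2:**
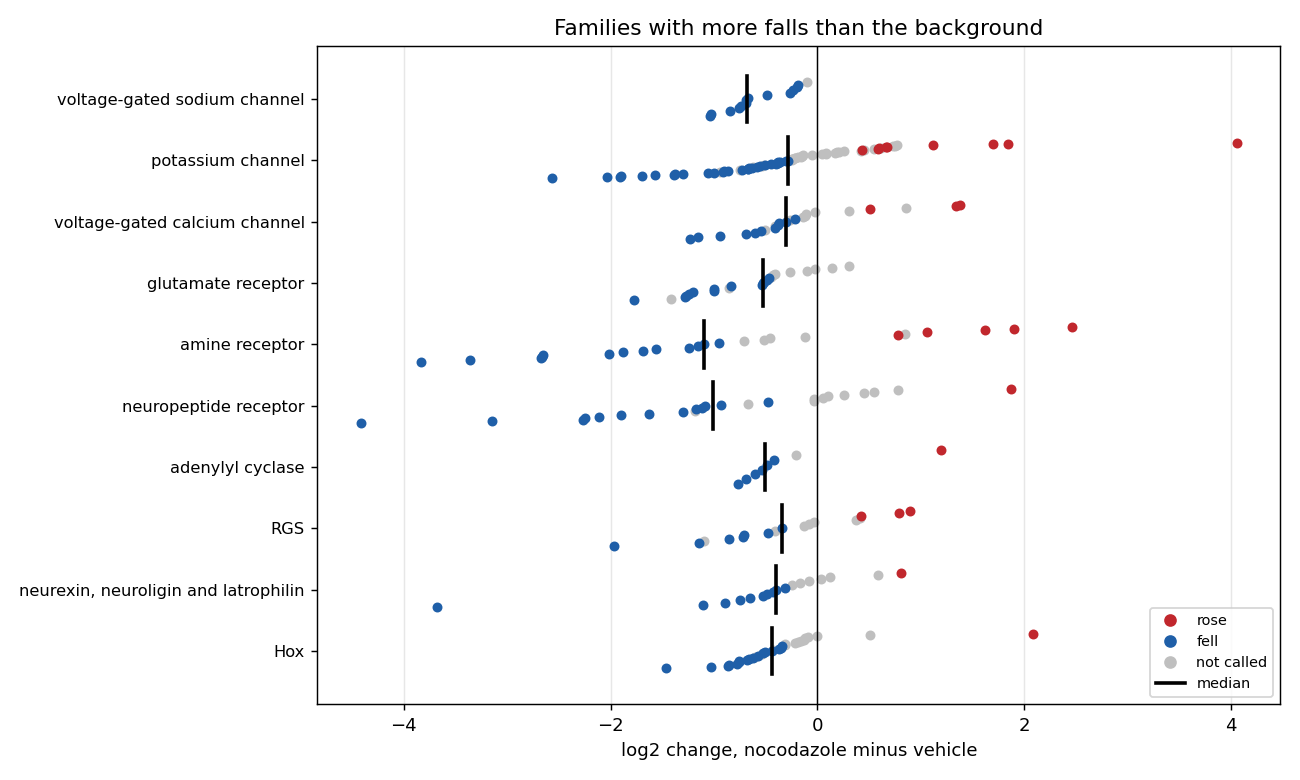
Log2 change after nocodazole of every tested member (points) of 10 families in which the share of falls was above that of all tested genes, coloured by whether the gene rose, fell or was not called, with the family median as a black line. Voltage-gated sodium channel genes lie to the left of 0 throughout, and the amine and neuropeptide receptor families reach the lowest values.

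Many receptors coupled to G proteins fell. Amine receptors, which bind serotonin, noradrenaline, dopamine, histamine and acetylcholine, showed 13 falls against 5 rises in 23 tested genes, with a median log2 change of -1.09. Htr1b and Chrm1 led the falls at 5 CPM or more. In the other direction Adra2a, the alpha-2A adrenergic receptor that dampens transmitter release, lay at 7.4, 6.62, 8.02 and 7.54 CPM and at 24.4, 30.5, 20.7 and 15.3 CPM (1.62 ± 0.22, SE), and Hrh1, a histamine receptor of itch neurons, went from 3.15 ± 0.564 to 6.57 ± 1.26 CPM (1.06). All 4 nocodazole libraries were above all vehicle libraries for Adra2a. Purine, prostaglandin and lysophospholipid receptor genes stayed near the background, with 4 rises and 3 falls among 17.

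Neuropeptide receptors fell in 13 of 24 cases and rose in 1 (median log2 change -1.01). Oprm1, the mu opioid receptor through which morphine acts, lay at 111, 119.6, 122 and 127 CPM and at 41.9, 38.3, 80.7 and 52.1 CPM (-1.17 ± 0.21, SE, edgeR adjusted p = 3.6e-04). Oprl1, the nociceptin receptor, lay at 23.1, 28.8, 22.4 and 27.9 CPM and at 4.96, 5.59, 6.89 and 6.18 CPM (-2.11 ± 0.21, SE). Both were lower in every nocodazole library, as was Oprk1 above. Adcyap1r1, the PACAP receptor, went from 59.3 ± 9.54 to 27.9 ± 4.54 CPM (-1.09), Sstr4, a somatostatin receptor, from 6.34 ± 0.848 to 1.71 ± 0.972 CPM (-1.90), Npffr1 from 8.05 ± 1.69 to 3.28 ± 1.64 CPM (-1.30) and Npy4r from 9.42 ± 1.4 to 4.35 ± 0.671 CPM (-1.11). Tacr1, the substance P receptor, had a log2 change of -0.47 with overlapping groups. The Tacr1 call was lost without vehicle replicate 1 or 4 or nocodazole replicate 2 or 3 (edgeR adjusted p = 0.0501 to 0.103). Leaving out nocodazole replicates 1 and 2 gave 8 falls. The rise was in Calcrl, the core of the receptors for CGRP and adrenomedullin, at 4.11, 3.4, 5.6 and 4.68 CPM and 14.8, 17.7, 17.5 and 15.1 CPM (1.87 ± 0.15, SE). No call was made for Galr2, Bdkrb2 and Sstr2, at log2 changes of -0.03, 0.11 and 0.54. The calls of Npffr1, Tacr1 and Sstr4 ended without nocodazole replicates 1 and 2, at log2 changes of -0.83, -0.52 and -1.33 and an edgeR adjusted p of 0.15, 0.077 and 0.11. The Tacr1 call also ended in the fit of the 8 libraries alone (edgeR adjusted p = 0.07).

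Genes of cyclic AMP and of G-protein shut-off fell more often than they rose. Adenylyl cyclases, which make cyclic AMP, fell in 6 of 8 cases and rose in 1. Adcy8 went from 121 ± 7.24 to 74.5 ± 4.73 CPM (log2 change -0.69) and Adcy2 from 64.5 ± 7.05 to 38 ± 12.2 CPM (-0.77). The Adcy2 call was lost without vehicle replicate 1, 2, 3 or 4 or nocodazole replicate 1 or 2 (edgeR adjusted p = 0.0509 to 0.12). RGS genes, whose products speed the switching-off of G proteins, had 7 falls and 3 rises among 17 tested members. Rgs2 went from 16.4 ± 3.59 to 4.21 ± 0.948 CPM (-1.96) and Rgs20 from 3.31 ± 0.265 to 6.16 ± 0.639 CPM (0.90). Cyclic nucleotide phosphodiesterase genes counted 5 members down and 2 up out of 19. The Adcy2 call ended without nocodazole replicates 1 and 2 (log2 change -0.42, edgeR adjusted p = 0.35).

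Peptide genes rose more often than they fell. Of 26 neuropeptide and peptide-processing genes, 7 rose (26.9%) and 2 fell (7.69%), against 18.6% and 19.0% of all tested genes. A rise of at least 2-fold was called in 5 of the 26, against 6.43% of all tested genes. The largest log2 change in the list was 3.25. At 5 CPM or more, Vgf was the only rise of at least 2-fold, as given above. The other rises of that size lay in genes below 5 CPM, which are not named here. Pam, which amidates peptides, rose from 105 ± 1.98 to 155 ± 28.2 CPM (log2 change 0.57), and Pcsk2, a prohormone convertase, fell from 261 ± 13.6 to 172 ± 14.4 CPM (-0.60). Chgb and Pcsk1 had log2 changes of 0.24 and -0.40. The Chgb call was lost without vehicle replicate 2 or nocodazole replicate 2 or 4 (edgeR adjusted p = 0.063 to 0.074). The Pcsk1 call was lost without vehicle replicate 2, 3 or 4 or nocodazole replicate 1, 2 or 4 (edgeR adjusted p = 0.061 to 0.12). The pain peptides did not pass the test: Calca, which encodes CGRP, was at 65.6 ± 16.8 and 48.2 ± 32.3 CPM (-0.45), Tac1, which encodes substance P, at 18.6 ± 3.44 and 17.1 ± 4.49 CPM (-0.12), Gal at 6.81 ± 1.33 and 8.64 ± 2.71 CPM (0.34) and Adcyap1 at 17.5 ± 3.44 and 14.1 ± 5.33 CPM (-0.32). Log2 changes of the other peptide genes at 5 CPM or more that were not called lay between -0.26 (Chga) and 0.27 (Scg2). The calls of Pam, Pcsk1 and Chgb ended without nocodazole replicates 1 and 2, at log2 changes of 0.32, -0.37 and 0.18 and an edgeR adjusted p of 0.081, 0.16 and 0.16. The Pcsk1 call also ended without the filter on low counts (edgeR adjusted p = 0.06) and with the replicate number as a block (edgeR adjusted p = 0.0534).

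Genes of neurotrophin and GDNF signalling, on which these neurons depend for survival, showed 7 falls against 3 rises in 22 tested genes. Ntrk3, the receptor for neurotrophin-3, lay at 65.1, 64.5, 73.8 and 68.4 CPM and at 20.3, 17.4, 54.2 and 45.1 CPM (log2 change -0.99 ± 0.37, SE). The groups did not overlap, but nocodazole replicates 1 and 2 lay below 3 and 4. The Ntrk3 call was lost without vehicle replicate 1, 2, 3 or 4 or nocodazole replicate 1 or 2 (edgeR adjusted p = 0.063 to 0.13). Sorcs3, a sorting receptor, went from 10.4 ± 0.863 to 2.23 ± 1.25 CPM (-2.23) and Gfra3, the artemin co-receptor, from 10.9 ± 1.18 to 5.13 ± 2.44 CPM (-1.09). Bdnf, itself a neurotrophin, rose from 19 ± 1.23 to 25.3 ± 4.79 CPM (0.42), and Maged1, Nptx1 and Kidins220 had log2 changes of -0.28, -0.55 and 0.16. Nptx1 encodes a neuronal pentraxin and is not a gene of this signalling, although the hand-written list holds it and the falls include it. The Nptx1 call was lost without vehicle replicate 1, 2 or 4 or nocodazole replicate 3 or 4 (edgeR adjusted p = 0.0515 to 0.085). The Kidins220 call was lost without vehicle replicate 3 or 4 or nocodazole replicate 3 or 4 (edgeR adjusted p = 0.0521 to 0.13). Ngfr, Ret, Gfra1, Sort1 and Shc1 did not pass the test (-0.40, 0.13, -0.44, 0.40 and 0.43), nor did Frs2, Gfra4, Sorcs2 and Sh2b1 (0.13, -0.11, -0.26 and -0.08). The calls of Bdnf, Ntrk3 and Maged1 ended without nocodazole replicates 1 and 2, at log2 changes of 0.16, -0.46 and -0.20 and an edgeR adjusted p of 0.24, 0.39 and 0.14. The Kidins220 call also ended without the filter on low counts (edgeR adjusted p = 0.0954). The Nptx1 log2 change was -0.89 without nocodazole replicates 1 and 2. The Ntrk3 call also ended with protein-coding genes tested alone (edgeR adjusted p = 0.0519).

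Growth factor families differed in their counts. In the EGF family and its feedback inhibitors 7 of 17 genes rose and 2 fell. Spry2, an inhibitor of receptor tyrosine kinase signalling, went from 17 ± 2.4 to 44.5 ± 4.82 CPM (log2 change 1.39) and its relative Spry4 from 53.2 ± 14.1 to 111 ± 30.3 CPM (1.06). The Spry4 call was lost without vehicle replicate 3 or 4 or nocodazole replicate 1 or 2 (edgeR adjusted p = 0.0506 to 0.057). The ligand genes Nrg1 and Nrg2 fell by 0.35 and 0.22 on the log2 scale. BMP, activin and TGF-beta genes had 11 rises and 6 falls among 36 tested members, with Bmp1, a procollagen protease, at 10.3 ± 0.921 and 19 ± 3.71 CPM (0.88), Smad5, a transducer of BMP signals, at 0.74, and Gdf11, a ligand, at 191 ± 11.4 and 105 ± 17.3 CPM (-0.87). Insulin-like growth factor genes counted 4 members up and 1 down out of 9, among them the binding proteins Igfbp3 (3.76 ± 0.261 to 12.7 ± 1.92 CPM, 1.75) and, downward, Igfbp2 (39.3 ± 4.6 to 21.3 ± 2.1 CPM, -0.88), and the receptor gene Igf2r (0.45). The calls of Spry4 and Nrg2 ended without nocodazole replicates 1 and 2, at log2 changes of 0.69 and -0.23 and an edgeR adjusted p of 0.21 and 0.0548. The Nrg1 log2 change was -0.61 without nocodazole replicates 1 and 2.

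Wnt and Frizzled genes moved both ways, with 9 rises and 12 falls among 31. The receptor genes diverged: Fzd5 lay at 8.12, 7.82, 7.39 and 7.38 CPM and at 24.6, 21.2, 30.8 and 26.9 CPM (log2 change 1.75 ± 0.11, SE) and Fzd4 had a change of 1.35, whereas Fzd7 lay at 17.3, 16.6, 12.6 and 15.5 CPM and at 2.23, 2.39, 2.84 and 4.13 CPM (-2.42 ± 0.23, SE). No library of one group reached the other in Fzd5 or Fzd7. The ligand gene Wnt11 fell from 12.6 ± 3.45 to 3.6 ± 1.24 CPM (-1.81). Fibroblast growth factor and receptor genes showed 5 rises against 6 falls in 17 tested genes, with the receptor Fgfr1 at 0.56 and the ligands Fgf18 (11.2 ± 1.04 to 2.37 ± 1.07 CPM) and Fgf5 at -2.25 and -0.85. Genes of gp130 and STAT3 signalling had 4 rises and 5 falls among 18 tested members, and so the rise of Il6ra stood beside the fall of Lifr. Interleukin (5 up and 5 down of 25), TNF (4 and 1 of 18), chemokine (1 and 0 of 7) and Notch pathway genes (3 and 6 of 23) did not reach 1.5 times the background in either direction.

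Many receptors and components of the extracellular matrix rose. Integrins, the dimeric receptors that bind laminin, fibronectin and collagen, counted 11 members up and 2 down out of 18 (median log2 change 0.74). Itga9, a chain of the tenascin receptor, lay at 15.7, 17.7, 12.2 and 13.2 CPM and at 45.3, 46.9, 24 and 31.3 CPM (1.33 ± 0.27, SE), and Itga4 moved the other way, from 26.1, 23.7, 22.7 and 23.9 CPM to 8.99, 8.8, 9.34 and 12.7 CPM (-1.28 ± 0.18, SE). Neither gene overlapped between groups. Without vehicle replicate 4, and likewise without nocodazole replicates 1 and 2, the number of integrin genes that rose was 7. Collagen genes showed 9 rises against 1 fall in 32 tested genes, mostly at low levels: Col18a1, of basement membranes, went from 1.72 ± 0.359 to 6.57 ± 0.967 CPM (1.92) and Col20a1 from 1.85 ± 0.294 to 6.82 ± 1.22 CPM (1.88), while the neuronal collagen Col25a1 fell from 30.6 ± 4.22 to 19.1 ± 3.67 CPM (-0.68). The fibrillar collagen Col1a1, a fibroblast marker, was at 0.62 ± 0.539 and 1.3 ± 0.569 CPM and was not called. Fibroblast markers summed to more in some nocodazole libraries than in vehicle libraries, as given above, and their part in the collagen counts was not tested. Laminin, fibronectin and thrombospondin genes had 7 rises and 2 falls among 18 tested members, and only Lamc1 rose at 5 CPM or more. The family sum did not rise, at 163 to 180 CPM in vehicle and 151 to 179 CPM in nocodazole libraries. The chains of the laminin trimer moved apart: Lamc1 rose from 41.9 ± 3.67 to 75.6 ± 7.06 CPM (0.85) while Lamb1 fell from 37.2 ± 3.25 to 13 ± 4.13 CPM (-1.52) and Lama3 from 10.6 ± 2.83 to 4.21 ± 1.42 CPM (-1.33).

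Extracellular proteases and their inhibitors had no single direction. Plat, the tissue plasminogen activator released by injured neurons, lay at 23.2, 23.7, 34.2 and 29.7 CPM and at 112, 95.5, 137 and 122 CPM (log2 change 2.07 ± 0.13, SE, edgeR adjusted p = 1.5e-08), with no overlap. Serpins and plasminogen system genes together counted 4 members up and 6 down out of 17, with Serpinb1a at 9.92 ± 1.28 and 2.48 ± 0.453 CPM (edgeR adjusted p = 1.7e-04), Serpina3g at -0.86 and Serpinf1, which encodes the trophic factor PEDF, at 238 ± 11.3 and 279.9 ± 11.6 CPM (0.24). Metalloprotease genes showed 12 rises against 13 falls in 49 tested genes.

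Many neuronal adhesion and synapse-organising genes fell. Neurexins, neuroligins, latrophilins, teneurins and cerebellins, which join both sides of a synapse, had 10 falls and 1 rise among 17 tested members (median log2 change -0.40). Nlgn3 lay at 179.98, 188, 174 and 187 CPM and at 93.5, 88.8, 102 and 109 CPM (-0.89 ± 0.12, SE). The teneurins moved apart, as Tenm4 lay at 287, 264, 263 and 239 CPM and at 529, 502, 378 and 433 CPM (0.80 ± 0.18, SE) and Tenm3 went from 310.3 ± 34.9 to 185 ± 39.6 CPM (-0.75). None of the 3 overlapped between groups. Immunoglobulin superfamily adhesion genes counted 15 members down and 5 up out of 42, with Dscaml1 (14.7 ± 1.37 to 4.67 ± 0.682 CPM, -1.65) and Cntn3, a contactin (25 ± 1.22 to 9.64 ± 1.05 CPM, -1.38), against Igsf9b, an organiser of inhibitory synapses (464 ± 4.67 to 838 ± 38.7 CPM, 0.85). With nocodazole replicates 1 and 2 left out, 6 genes of the neurexin group and 9 of the immunoglobulin group fell. Leucine-rich repeat transmembrane genes showed 29 falls against 12 rises in 79 tested genes, and here Lrrn3 rose from 27.6 ± 4.35 to 75.9 ± 27.6 CPM (1.46) and Lrig1, a brake on growth factor receptors, from 3.02 ± 0.151 to 9.43 ± 4.01 CPM (1.64). Cadherin genes had 12 falls and 4 rises among 31 tested members, with the giant planar-polarity cadherins Fat4 (66.7 ± 11.6 to 24.9 ± 2.56 CPM, -1.42) and Celsr1 (-1.58) among the falls. The clustered protocadherins, which give neurons their surface barcodes, were called in only 5 of 55 cases, all downward, below the background share. Of their log2 changes 46 were negative and 9 positive (median -0.15). The family summed to 1434 to 1537 CPM in vehicle and 968 to 1246 CPM in nocodazole libraries, without overlap. Reads of these genes share exons, so counts of single members are uncertain. The calls of Celsr1 and Tenm3 ended without nocodazole replicates 1 and 2, at log2 changes of -1.07 and -0.51 and an edgeR adjusted p of 0.15 and 0.084.

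**Figure D3:**
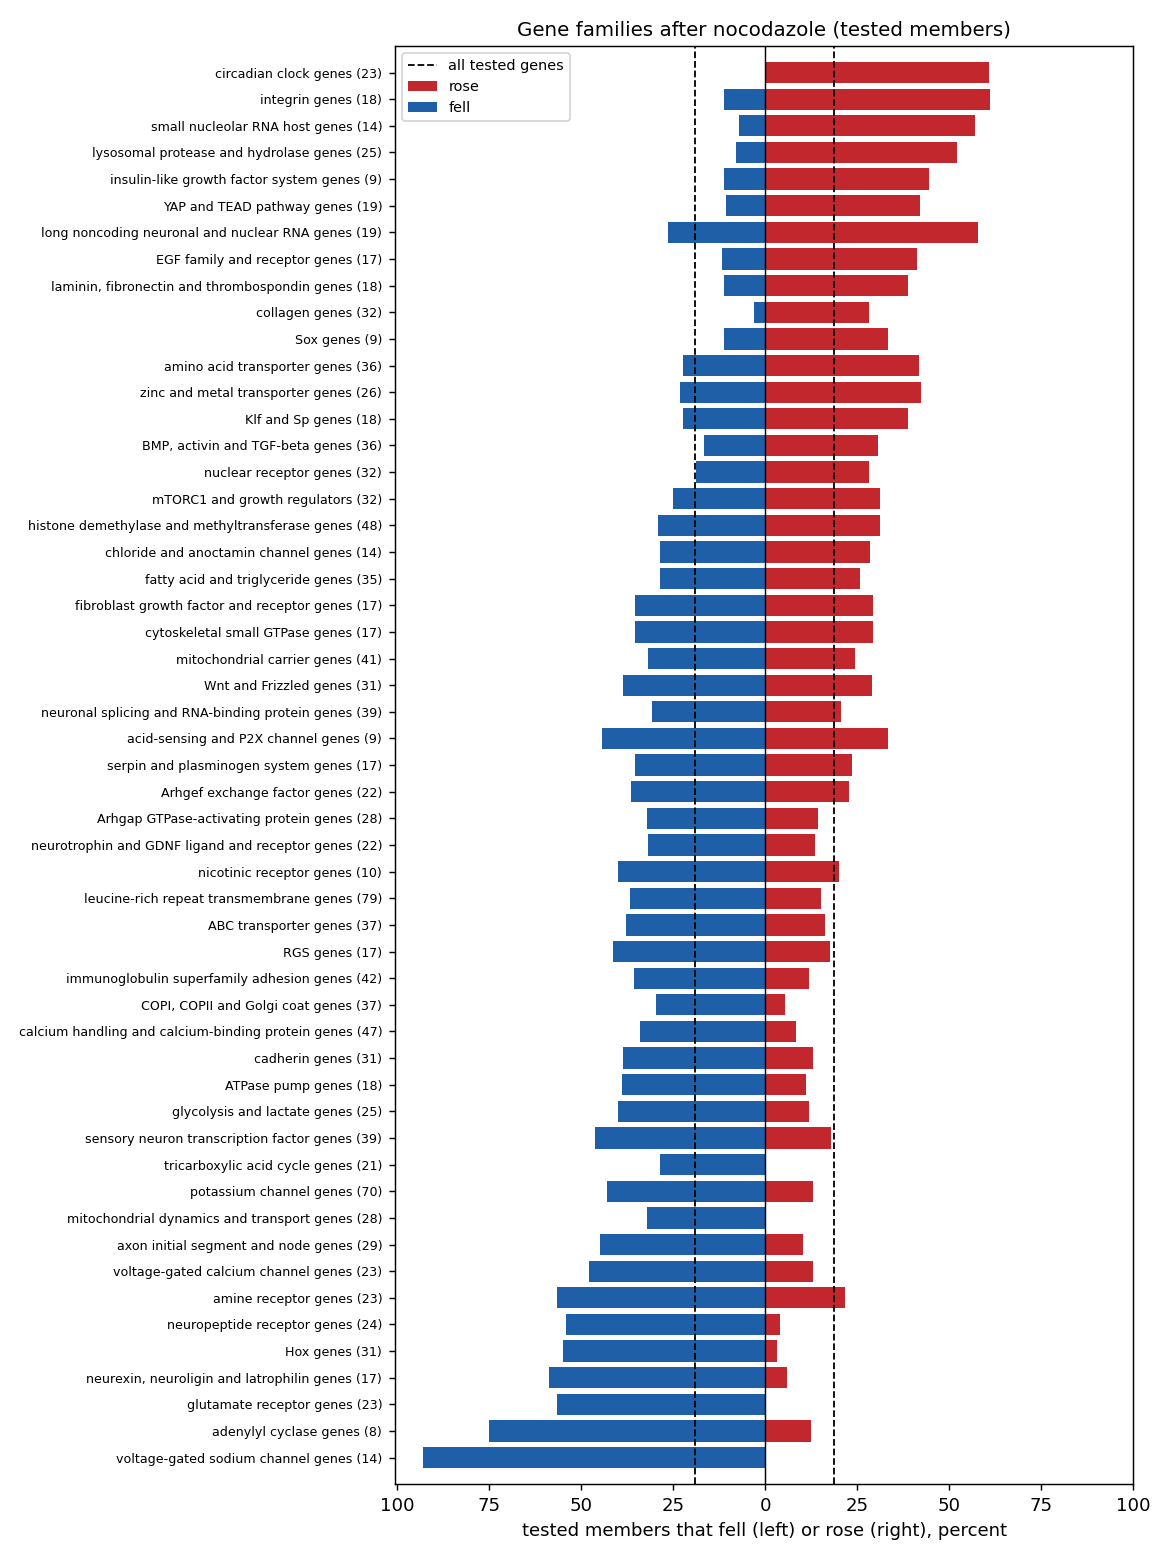
Percentage of tested members that rose (right) or fell (left) after nocodazole, with the number of tested members in brackets. Shown are families and lists of at least 8 tested genes in which either share was at least 1.5 times that of all tested genes (dashed lines). Lists of cell markers that met this limit are left out. Circadian clock and integrin genes stand at the top and voltage-gated sodium channel and adenylyl cyclase genes at the bottom.

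Amino acid transporters and metal genes rose in larger shares than the background of 18.6%. Amino acid transporters had 15 rises and 8 falls among 36 tested members. Slc1a5, the glutamine and neutral amino acid exchanger, lay at 24.8, 12, 30.9 and 21.1 CPM and at 143, 165, 57.4 and 54.3 CPM (log2 change 2.24 ± 0.51, SE), Slc7a14 went from 52 ± 1.56 to 132 ± 16.7 CPM (1.35), and Slc38a1, the abundant glutamine carrier, lay at 293, 251, 299 and 288 CPM and at 663, 636, 477 and 525 CPM (1.02 ± 0.12, SE). In each of the 3 the groups did not overlap, although Slc1a5 was higher in nocodazole replicates 1 and 2 than in 3 and 4. Slc7a4 and Slc6a17, a vesicular amino acid carrier, fell (-0.77 and -0.69). Zinc and metal genes counted 11 members up and 6 down out of 26. The metallothioneins, small proteins that bind zinc and copper, rose, Mt2 from 23.3, 11.1, 8.64 and 9.9 CPM to 69.2, 56.7, 51.6 and 89.8 CPM (2.34 ± 0.42, SE) and Mt1 from 36, 21.7, 22.6 and 19.9 CPM to 94.5, 77.4, 83 and 119.98 CPM (1.90 ± 0.25, SE), while Tfrc, the transferrin receptor for iron uptake, lay at 192, 185, 177 and 163 CPM and at 111, 103, 86 and 97.6 CPM (-0.85 ± 0.0912, SE). In all 3 the libraries of one group lay clear of those of the other. Glucose and monocarboxylate transporters (6 up and 2 down of 26) and ion exchangers (5 and 7 of 39) did not reach 1.5 times the background. ABC transporters counted 14 members down and 6 up out of 37, with the sterol exporter Abcg1 at 76.8 ± 5.63 and 41.7 ± 7.51 CPM (-0.88). The Slc1a5 call ended without nocodazole replicates 1 and 2 (log2 change 1.32, edgeR adjusted p = 0.076).

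Glycolysis genes fell more often than they rose. Hk2, a hexokinase that traps glucose, lay at 5.01, 5.07, 5.78 and 3.41 CPM and at 34.6, 42.9, 9.97 and 14.9 CPM (log2 change 2.40 ± 0.64, SE), and Slc2a1, the glucose carrier, at 19.6, 23.7, 23.9 and 24.3 CPM and at 55.5, 53.5, 59.5 and 51 CPM (1.26 ± 0.12, SE), each without overlap. For Hk2, nocodazole replicates 1 and 2, which had the highest mitochondrial shares of the 8 libraries, lay above replicates 3 and 4, and the part of that share in the values was not tested. Hk1, the main hexokinase of neurons, fell from 711 ± 36.9 to 562 ± 33 CPM (-0.34), and Pfkfb3, which makes an activator of phosphofructokinase, rose from 69.96 ± 5.38 to 135 ± 21.3 CPM (0.95). These 2 genes were chosen after their values were seen. Of the 25 glycolysis and lactate genes, 3 rose and 10 fell, and without vehicle replicate 4 the number that fell was 6. It was 5 without nocodazole replicates 1 and 2. Pdk2 and Pdk1, kinases that close the entry to the citric acid cycle, were among the falls (12.8 ± 1.68 to 4.89 ± 1.66 CPM, -1.40, and 42.5 ± 2.28 to 30.9 ± 4.05 CPM, -0.46). Citric acid cycle genes fell in 6 of 21 cases with no rise, with Idh2 at -0.80 and Idh3a at -0.34. Fatty acid and triglyceride genes were split between 9 rises and 10 falls among 35. The rises included Dgat2, the last step of triglyceride synthesis, at 32.9, 27.3, 35.7 and 35.4 CPM and 93.8, 92.8, 105 and 104 CPM (1.59 ± 0.12, SE) and Lpin1, a phosphatidate phosphatase, at 41 ± 2.11 and 91.9 ± 20.3 CPM (1.17). The falls included Ppargc1a, the coactivator of mitochondrial genes (16.4 ± 1.86 to 8.97 ± 0.905 CPM, -0.87), and Cpt2, of mitochondrial fatty acid import (18.8 ± 2.98 to 12.7 ± 2.42 CPM, -0.56). Rises among fatty acid genes numbered 5 when nocodazole replicates 1 and 2 were left out. Cholesterol genes showed 2 rises against 4 falls in 28 tested genes, below the background. The calls of Hk2 and Hk1 ended without nocodazole replicates 1 and 2, at log2 changes of 1.36 and -0.28 and an edgeR adjusted p of 0.17 and 0.061.

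Falls among nuclear genes for mitochondria were small. Genes of mitochondrial dynamics and transport fell in 9 of 28 cases with no rise, within a narrow range (log2 changes from -0.27 to 0.19), among them Opa1, of inner membrane fusion (251 ± 8.37 to 209.6 ± 9.85 CPM, -0.26), and Phb, prohibitin (-0.27). Mitochondrial ribosomal protein genes showed 17 falls against 3 rises in 78 tested genes, and nuclear respiratory chain genes fell in 13 and rose in 4 of 99, shares close to or below the background. None of the 13 protein genes of the mitochondrial genome was called, although their log2 changes were all above 0 (0.01 to 0.52). Mitochondrial carriers of the Slc25 family had 13 falls and 10 rises among 41 tested members, from Slc25a23 at -0.70 and Slc25a35 at -0.75 to Slc25a44 at 0.51 and Slc25a33, a pyrimidine nucleotide carrier, at 0.80. The number of carriers that rose was 6 without vehicle replicate 4, without nocodazole replicate 2 and without nocodazole replicates 1 and 2 together. The Phb call ended without nocodazole replicates 1 and 2 (log2 change -0.24, edgeR adjusted p = 0.081).

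Genes of lysosomal enzymes rose more often than they fell. Proteases and hydrolases of the lysosome had 13 rises and 2 falls among 25 tested members (median log2 change 0.27). Ctsc, the protease cathepsin C, lay at 0.871, 0.498, 1.22 and 0.744 CPM and at 6.9, 7.33, 4.38 and 4.42 CPM (2.77 ± 0.40, SE), and Gla, the galactosidase that is deficient in Fabry disease and whose promoter holds 2 CLEAR cores, at 19.7, 18.1, 18 and 17.8 CPM and at 49, 45.8, 34.5 and 43.4 CPM (1.23 ± 0.12, SE). Neither overlapped between groups. Lipa, the acid lipase, fell from 49.5 ± 3.29 to 28.3 ± 2.38 CPM (-0.81), and Glb1 had a log2 change of -0.17. The Glb1 call was lost without vehicle replicate 2, 3 or 4 or nocodazole replicate 1, 2 or 3 (edgeR adjusted p = 0.0538 to 0.16). Macrophages carry lysosomal genes too. Of 5 tested macrophage markers Cd68, itself a lysosomal protein, rose from 0.428 ± 0.169 to 2.16 ± 0.437 CPM, the defining gene Csf1r lay at 0.69 ± 0.305 and 1.07 ± 0.32 CPM without a call, and the list summed to 62.2 to 67.8 and 62.8 to 71.4 CPM. Vacuolar ATPase genes (5 up and 2 down of 18) and autophagy genes (7 and 7 of 35) did not reach 1.5 times the background. Regulators of mTORC1 and growth, which works at the lysosome, counted 10 members up and 8 down out of 32, with Fnip1 at 27.2 ± 2.47 and 59.8 ± 3.29 CPM (1.14), the translation repressor Eif4ebp1 at 26.2 ± 2.04 and 57.2 ± 5.19 CPM (1.12), and the arginine sensor relative Castor2 at 91.6 ± 12.9 and 42.3 ± 1.97 CPM (-1.11). The Glb1 call ended without nocodazole replicates 1 and 2 (log2 change -0.13, edgeR adjusted p = 0.25). The Glb1 call also ended with RLE scaling (edgeR adjusted p = 0.0506), without the filter on low counts (edgeR adjusted p = 0.064), in the fit of the 8 libraries alone (edgeR adjusted p = 0.057) and with protein-coding genes tested alone (edgeR adjusted p = 0.072).

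Of the secretory pathway, COPI, COPII and Golgi coat genes counted 11 members down and 2 up out of 37, all but 1 by small steps. Arf3, a GTPase of Golgi vesicles, went from 505 ± 26.3 to 405 ± 6.09 CPM (log2 change -0.32) and Sec22c had a change of -0.40, whereas Sec11c, of the signal peptidase, went from 17.2 ± 0.645 to 43.9 ± 2.87 CPM (1.35). Golga4 had a log2 change of 0.29. The Golga4 call was lost without vehicle replicate 2 or 4 or nocodazole replicate 1 or 2 (edgeR adjusted p = 0.054 to 0.078). Rab genes showed 14 falls against 7 rises in 52 tested genes, and genes of dense-core vesicles fell in 8 and rose in 4 of 30. Few proteasome genes were called: 2 of 44 subunit genes rose and 1 fell. The Golga4 call ended without nocodazole replicates 1 and 2 (log2 change 0.17, edgeR adjusted p = 0.27).

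Many clock genes rose. Of 23 circadian clock genes, 14 rose and none fell (median log2 change 0.52). Over all tested genes 18.6% rose. The list was written by hand with earlier results of these data known, so the count is a description. Bhlhe40, a repressor of the clock that also answers to activity, lay at 6.38, 5.56, 4.61 and 5.12 CPM and at 35.7, 27.1, 17.3 and 23.3 CPM (2.26 ± 0.20, SE), and Per1, a core clock repressor, at 25.7, 23.9, 32.3 and 29.9 CPM and at 109, 99.2, 101 and 94.8 CPM (1.85 ± 0.14, SE, edgeR adjusted p = 1.2e-07). Every nocodazole library exceeded every vehicle library for both. Rora, a nuclear receptor that drives clock genes, rose from 7.14 ± 0.799 to 24.6 ± 1.31 CPM (1.78), and Nr1d2, a repressor that binds the same sites, from 2.82 ± 0.413 to 5.03 ± 1.73 CPM (0.83). All libraries come from 1 time after treatment, so no rhythm could be read. Nuclear receptors as a family showed 9 rises against 6 falls in 32 tested genes, with Nr4a2 and the retinoic acid receptor Rarg among the falls (-0.90 and -0.86). Klf and Sp genes had 7 rises and 4 falls among 18 tested members, led by Klf9, a target of glucocorticoid and thyroid hormone known to restrain axon growth (7.87, 9.31, 9.12 and 8.03 CPM to 23.9, 22.9, 24.1 and 28.3 CPM, 1.53 ± 0.16, SE), and Klf10 (0.93), with Klf16 and Klf8 on the other side (-0.54 and -0.39). For Klf9 the groups did not overlap. Sox genes counted 3 members up and 1 down out of 9, of which only Sox11 reached 5 CPM among the called (115, 109, 136 and 127 CPM to 402, 364, 359 and 332 CPM, 1.58 ± 0.15, SE). The calls of Nr1d2 and Nr4a2 ended without nocodazole replicates 1 and 2, at log2 changes of 0.37 and -0.56 and an edgeR adjusted p of 0.19 and 0.084.

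Many factors that set the identity of the neuron fell. Hox genes, which record the position of a neuron along the body axis, had 17 falls and 1 rise among 31 tested members (median log2 change -0.44). Hoxd1, needed for nociceptor wiring in mice, lay at 30.4, 38.4, 25.1 and 28.4 CPM and at 13, 12.1, 9.22 and 10.02 CPM (-1.46 ± 0.20, SE), and Hoxa10 went from 16.5 ± 1.78 to 8.06 ± 2.06 CPM (-1.03). Against them Hoxb9 lay at 4.73, 2.17, 6.63 and 5.77 CPM and at 22.1, 24.9, 17.2 and 17.8 CPM (2.08 ± 0.39, SE). Hoxd1 and Hoxb9 each separated the groups fully, in opposite directions. Sensory neuron transcription factors counted 18 members down and 7 up out of 39. Casz1, a zinc finger factor of neuron subtypes, lay at 223, 201, 213 and 224 CPM and at 80.3, 110.2, 43.1 and 53.3 CPM (-1.58 ± 0.20, SE), and Isl2 at 91.6, 81.4, 85.4 and 94.9 CPM and at 29.6, 37.9, 23.7 and 31.4 CPM (-1.53 ± 0.12, SE). Etv4, an ETS factor downstream of nerve growth factor, rose from 15.3 ± 3.27 to 46.1 ± 20.6 CPM (1.59). The Etv4 call ended without nocodazole replicates 1 and 2 (log2 change 0.93, edgeR adjusted p = 0.13).

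Chromatin genes were divided. Histone demethylases and methyltransferases showed 15 rises against 14 falls in 48 tested genes. Kdm7a, a demethylase, went from 18.1 ± 3.71 to 47.3 ± 3.72 CPM (log2 change 1.38), Ezh2, the methyltransferase of Polycomb, from 2.66 ± 0.509 to 6.94 ± 0.788 CPM (1.38), and Prmt8, an arginine methyltransferase of neurons, from 9.29 ± 1.06 to 2.65 ± 1.22 CPM (-1.81). Histone genes themselves had 16 rises and 1 fall among 71 tested members (median 0.33). Many are near copies of each other, so single members are uncertain. Proliferation genes rose in 5 of 19 cases, with Mki67, a defining gene of dividing cells, at 0.825 ± 0.0832 and 1.18 ± 0.363 CPM without a call. Deacetylases and acetyltransferases (7 up and 7 down of 27), zinc finger protein genes (60 and 66 of 384) and Mediator and RNA polymerase II genes (6 and 5 of 45) did not reach 1.5 times the background.

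**Figure D4:**
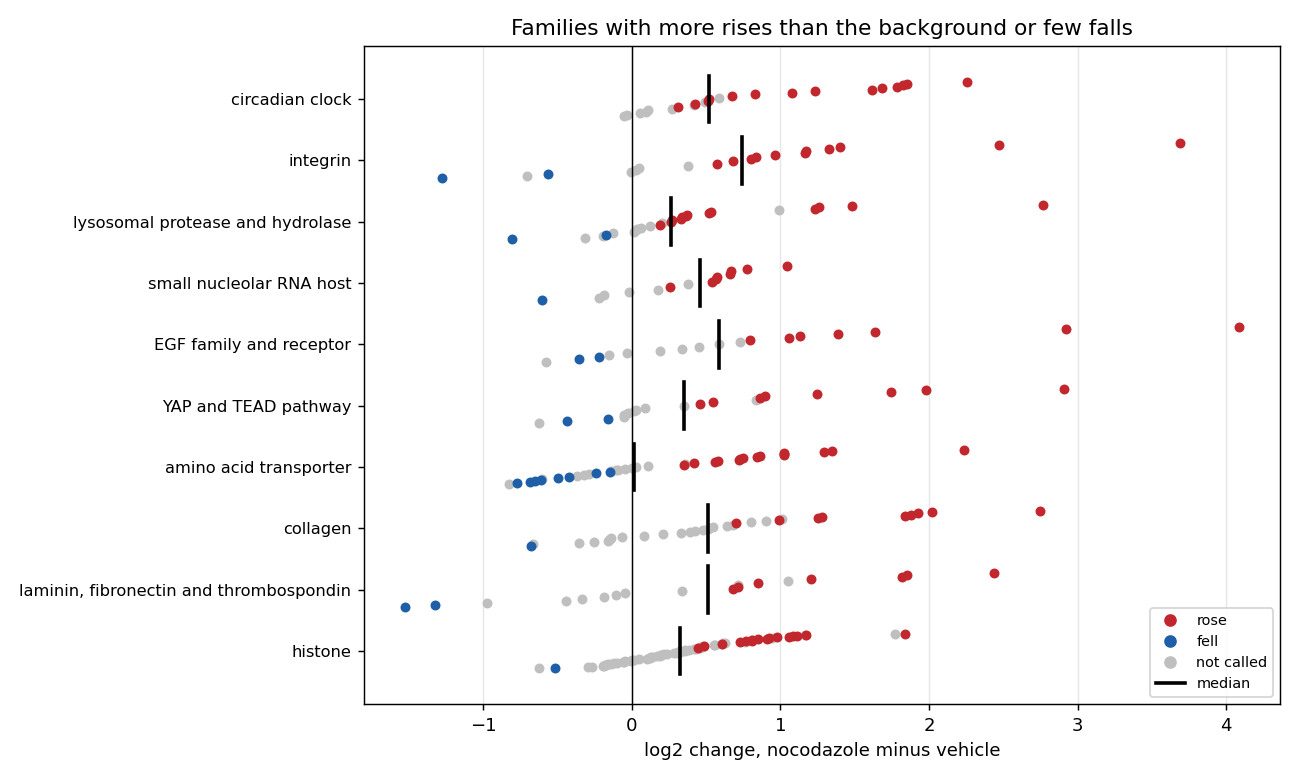
Log2 change after nocodazole of every tested member (points) of 10 families, coloured by whether the gene rose, fell or was not called, with the family median as a black line. No circadian clock gene fell, while amino acid transporter genes form both a rising and a falling set around a median near 0.

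Genes of exchange factors, which activate small GTPases of the cytoskeleton, moved in both directions. Arhgef2, which encodes the exchange factor GEF-H1 that microtubules hold inactive, lay at 28.3, 20.6, 47.8 and 38.8 CPM and at 163, 172, 155 and 143 CPM (log2 change 2.22 ± 0.36, SE, edgeR adjusted p = 1.4e-04), and Arhgef3, another exchange factor, at 4.85, 3.54, 8.02 and 5.71 CPM and at 35.3, 36.6, 38.5 and 31.1 CPM (2.67 ± 0.24, SE). Both were higher in every nocodazole library. Over the 22 exchange factors with the Arhgef stem, 5 rose and 8 fell, the latter by smaller steps, such as Arhgef17 at -0.63 and Arhgef4 at -0.47. Among the GTPases themselves, Rnd3 (9.52, 10.8, 10.3 and 9.24 CPM to 49, 35.9, 53.4 and 52.4 CPM, 2.26 ± 0.18, SE) and Rnd1 (1.29 ± 0.5004 to 6.29 ± 0.7997 CPM, 2.27) rose, Rhof, of filopodia, fell from 31 ± 1.77 to 11.1 ± 1.21 CPM (-1.48), and Rac3 had a log2 change of -0.25. The Rac3 call was lost without vehicle replicate 4 or nocodazole replicate 1 or 2 (edgeR adjusted p = 0.079 to 0.12). GTPase-activating proteins of the Arhgap stem showed 4 rises against 9 falls in 28 tested genes, with Arhgap33 at 0.77, Arhgap31 at 1.35, Arhgap28 at -1.06 and Arhgap25 at -1.09. The Arhgap25 call was lost without vehicle replicate 3 or 4 or nocodazole replicate 1 or 2 (edgeR adjusted p = 0.051 to 0.081). The calls of Arhgap25 and Rac3 ended without nocodazole replicates 1 and 2, at log2 changes of -0.59 and -0.14 and an edgeR adjusted p of 0.27 and 0.33. The Rac3 call also ended with protein-coding genes tested alone (edgeR adjusted p = 0.053).

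Genes of the YAP and TEAD pathway, which reads cell tension, had 8 rises and 2 falls among 19 tested members (median log2 change 0.35). Wwtr1, which encodes the coactivator TAZ, lay at 2.02, 0.791, 2.76 and 2.11 CPM and at 15.1, 18.5, 11.7 and 13 CPM (2.91 ± 0.53, SE), and Tead1, its partner on DNA, at 10.7, 11, 14.6 and 11.9 CPM and at 28.1, 24.8, 32.1 and 29.3 CPM (1.25 ± 0.13, SE). The groups did not overlap in either. The inhibitors Amotl2 and Nf2 had log2 changes of -0.44 and -0.16. The Amotl2 call was lost without vehicle replicate 3 or 4 or nocodazole replicate 1 (edgeR adjusted p = 0.063 to 0.067). The Nf2 call was lost without vehicle replicate 4 (edgeR adjusted p = 0.0553). Protein tyrosine phosphatase genes counted 8 members up and 8 down out of 32, and septin, annexin and S100 genes 4 up and 3 down out of 23. The Amotl2 call ended without nocodazole replicates 1 and 2 (log2 change -0.34, edgeR adjusted p = 0.12).

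Shares of counts were compared between classes of RNA. Protein-coding genes held 94 ± 0.957% of counts in vehicle and 91.4 ± 0.516% in nocodazole libraries, and long noncoding genes 2.18 ± 0.206% and 2.81 ± 0.104% (means ± SD, n = 4). For both classes every library of one group lay outside the range of the other (two-sided exact permutation p = 0.0286, the smallest that 4 against 4 can give, adjusted p = 0.05 over 7 classes, which is at the threshold and not below it). Pseudogenes went from 0.665 ± 0.028% to 0.765 ± 0.025% and cytosolic ribosomal protein genes from 0.971 ± 0.0427% to 1.09 ± 0.0583%, with the same exact p. With any 1 library left out the smallest possible p is 0.0571, so the exact p of these 4 differences was then above 0.05. Identifiers without a match in the annotation held 2.85 ± 0.809% and 4.65 ± 0.616% (exact permutation p = 0.0571). Their class is not known, and any protein-coding genes among them are missing from the protein-coding share. The differences were 1.81 percentage points for these identifiers and -2.60 for protein-coding genes. The mitochondrial share (exact permutation p = 0.171) and that of the 100 most abundant genes (exact permutation p = 0.114) overlapped between groups.

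Host genes of small RNAs and several long noncoding RNAs rose. Of 14 host genes of small nucleolar RNAs, whose spliced transcripts are degraded when they are translated, 8 rose and 1 fell (median log2 change 0.46), a count that was 5 without vehicle replicate 2, and the same number without nocodazole replicates 1 and 2. Snhg1 lay at 9.3, 8.2, 10.4 and 9.62 CPM and at 15.7, 19.2, 24.5 and 17.9 CPM (1.04 ± 0.14, SE), and Snhg5 went from 6.19 ± 0.327 to 10.6 ± 1.89 CPM (0.78). The groups did not overlap for either. On a list of known neuronal and nuclear long noncoding RNAs 11 of 19 rose and 5 fell. Neat1, the scaffold of nuclear paraspeckles, lay at 6.56, 5.18, 7.03 and 5.43 CPM and at 16.1, 12.7, 25.8 and 16.9 CPM (1.56 ± 0.20, SE), and Rmst, a partner of the SOX2 protein, at 1.18, 0.527, 1.64 and 1.05 CPM and at 9.35, 9.57, 7.25 and 5.56 CPM (2.83 ± 0.45, SE). Both were higher in every nocodazole library, and Rmst was the largest rise among long noncoding genes at 5 CPM or more. Next were Gm43581, Dleu2, Panct2 and Lncenc1, with log2 changes of 2.63, 2.49, 2.15 and 2.12. Peg13, an imprinted RNA, fell from 401 ± 20.2 to 298 ± 19.1 CPM (-0.43), and the largest long noncoding falls were in D430036J16Rik (6.42 ± 0.6002 to 1.36 ± 0.768 CPM, -2.25), Gm12371 (-2.07), F730016J06Rik (56.8 ± 9.76 to 20.5 ± 6.15 CPM, -1.47), A730035I17Rik (-1.46) and 1700001L05Rik (-1.33). 1700020I14Rik had a log2 change of -0.37. The 1700020I14Rik call was lost without vehicle replicate 2 or nocodazole replicate 1 or 2 (edgeR adjusted p = 0.059 to 0.068). Strand settings are not given in the sources used here, so reads of antisense partners could not be separated. The 1700020I14Rik call ended without nocodazole replicates 1 and 2 (log2 change -0.23, edgeR adjusted p = 0.23).

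Rises were called for 18 of 83 cytosolic ribosomal protein genes and no falls, a share of rises near the background with a narrow range of log2 changes (-0.10 to 0.58). RNA-binding proteins of neuronal splicing showed 12 falls against 8 rises in 39 tested genes. Elavl4, which stabilises neuronal messages, lay at 199, 197, 201 and 197 CPM and at 92.8, 108, 52.5 and 67.4 CPM (log2 change -1.31 ± 0.15, SE), and Khdrbs2 went from 16.2 ± 0.68 to 6.67 ± 1.92 CPM (-1.28). Qk, a splicing factor abundant in glia, rose from 7.2 ± 0.409 to 16.5 ± 4.08 CPM (1.20), and Igf2bp2 from 8.63 ± 0.771 to 17.7 ± 1.29 CPM (1.04). Elavl4 did not overlap between groups. Translation factors (12 up and 7 down of 63), hnRNP and SR proteins (8 and 6 of 32), RNA helicases (5 and 5 of 51), nuclear pore and importin genes (7 and 8 of 49) and RNA decay genes (7 and 4 of 37) did not reach 1.5 times the background. The same held for ubiquitin ligases and deubiquitinases (56 and 76 of 288) and axon degeneration and NAD genes (5 and 4 of 23).

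The last comparison asked whether the 30 genes with the largest rises and falls within the limits above changed by a different amount when the neurons had been pretreated with the DLK inhibitor. Over all tested genes this difference passed the edgeR test in 3587 (18.7%), and in these 30 genes it passed in 29. Since the genes were chosen for a large change without inhibitor, and the same 8 libraries enter the difference, that count is a description. Il6ra lay at 0.363 CPM with inhibitor alone and at 0.388 CPM with inhibitor and nocodazole, and its log2 change was 0.15 there against 5.32 without inhibitor (difference -5.18 ± 0.80, SE, edgeR adjusted p = 4.1e-04). Arid5a lay at 3.58 and 5.47 CPM, with a log2 change of 0.64 (difference -3.21 ± 0.58, SE, edgeR adjusted p = 0.0013). Among the falls, Htr1b lay at 60.5 and 50.4 CPM, with a log2 change of -0.27 (difference 2.40 ± 0.48, SE, edgeR adjusted p = 0.0027), and Adamts15 at 23.2 and 19.8 CPM (-0.24). With inhibitor the 30 changes lay between -0.71 (Bpifc) and 1.42 (Fam167a). For Tmem132c the difference of -2.68 ± 1.03 (SE) did not pass (edgeR adjusted p = 0.081). A single inhibitor at 1 dose was used, so actions through DLK and through other targets cannot be told apart.

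**Figure D5:**
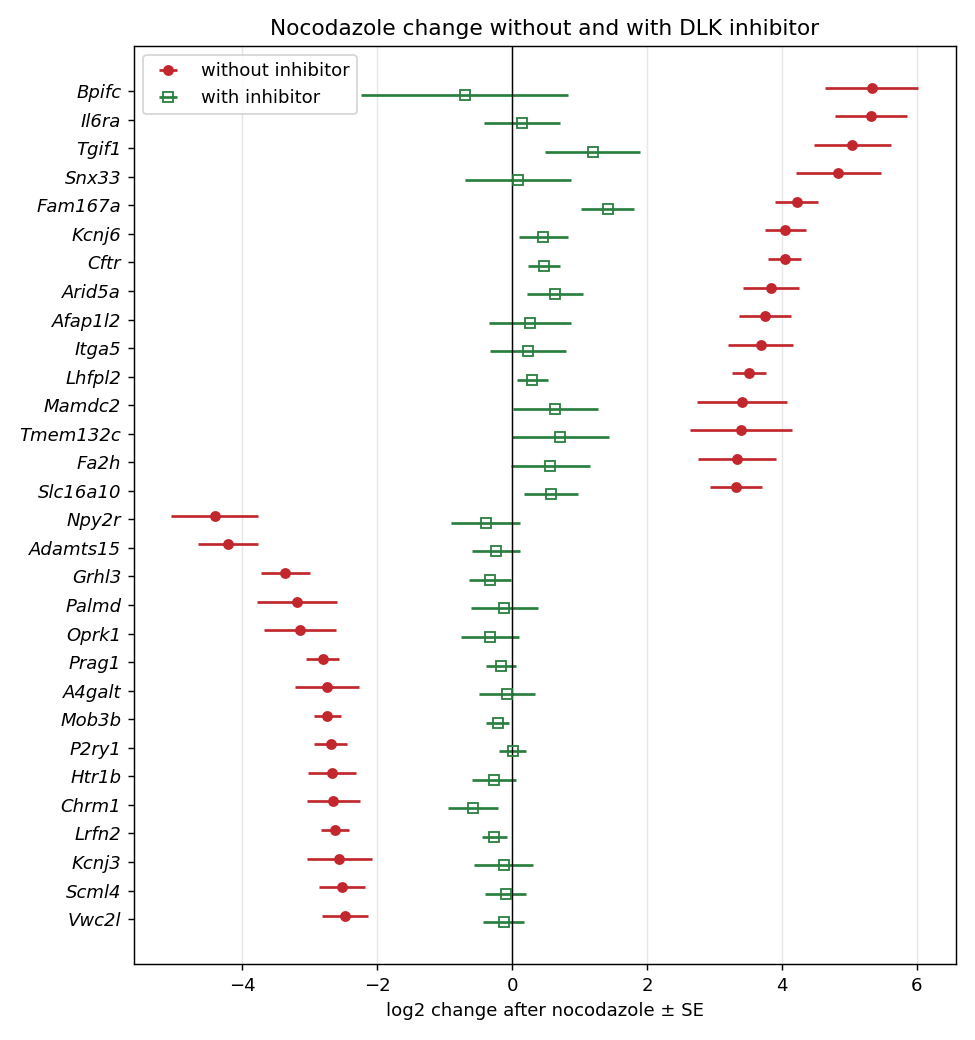
Log2 change after nocodazole ± SE for the same 30 genes, without inhibitor (filled circles) and with the DLK inhibitor (open squares). The values with inhibitor lie between -0.71 (Bpifc) and 1.42 (Fam167a), closer to 0 than those without inhibitor in every gene shown.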

How the data were processed

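Total RNA depleted of ribosomal RNA was sequenced. Values are the raw counts that the authors deposited, as whole numbers for each Ensembl gene and library. STAR, Salmon and the GRCm39 build are named, per the submitters' processing notes, and versions, roles and the strand setting are not given in the sources used here. Symbols and gene classes came from an annotation table for 94.1% of the identifiers. Depth ran from 30987962 to 43321421 counts, and the median SE of a log2 change was 0.145.

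Counts of all 16 libraries were scaled by TMM and filtered with edgeR's filterByExpr (edgeR 4.0.16, R 4.3.3), which left 19156 genes. With the 8 libraries alone the filter left 18041 genes. The quasi-likelihood test was fitted to all 16 libraries with 1 mean per group, so that the groups share an estimate of spread, and p-values were adjusted by Benjamini and Hochberg. CPM values use the scaled library sizes. Shares of counts were compared by two-sided exact permutation of libraries. The method was tested on simulated counts. The 12 pairs of replicates within groups of this comparison differed beyond sampling noise (chi-square per degree of freedom 8.86 to 35.5).

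Gene families were built from symbol stems and lists written by hand. Members and lists were chosen with earlier results of these data known. Genes were named by rule. A first list held the 15 largest log2 rises and falls with at least 5 CPM in the higher group and no overlap between groups. A second held the 10 largest gains and losses in CPM. Stress, AP-1 and tubulin genes were left out of these lists only. Up to 2 called genes per family and direction at 5 CPM or more were also named. So were all peptide, trophic and peptide receptor genes at that level, and 5 long noncoding genes per direction. A family of at least 8 tested genes was described with examples where its share in a direction reached 1.5 times the background. Marker genes named as a check of cell types are outside the rule. Alternatives were another scaling (RLE), no filter, a fit of the 8 libraries alone, a replicate block, DESeq2 1.42.0 and leaving out each library. Some genes that the rule names are not reported here.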

Additional observations from a re-analysis of the deposited data

Results flagged for a closer look

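For 28 of 532 gene and group pairs of 4 libraries (5.26%), taken from the 266 genes named in the text, 1 library stood far from the other 3. Dixon's test at its 95% level was used, by which chance alone singles out about 1 in 20 groups. In vehicle replicate 1 the distant levels were Palmd at 5.599 CPM, Mt2 at 23.3 CPM, Mt1 at 36.02 CPM, Slc2a1 at 19.6 CPM, Idh2 at 11.01 CPM and Gla at 19.7 CPM. In vehicle replicate 2 the distant levels were Cftr at 0.176 CPM, P2rx3 at 371 CPM, Scg2 at 58.6 CPM and Nr4a2 at 8.44 CPM. In vehicle replicate 3 the distant levels were Tgif1 at 0.346 CPM, Ret at 688 CPM, Lamb1 at 32.4 CPM and Kdm7a at 23.6 CPM. In vehicle replicate 4 the distant levels were Adamts15 at 29.7 CPM, Cacna1e at 63.96 CPM, Lgi3 at 42.4 CPM, Glb1 at 58.4 CPM and Rac3 at 146 CPM. In nocodazole replicate 1 the distant levels were Klf8 at 24.1 CPM and Amotl2 at 14.6 CPM. In nocodazole replicate 2 the distant level was Ptger4 at 2.51 CPM. In nocodazole replicate 3 the distant levels were Oprk1 at 1.24 CPM and Gfra3 at 8.77 CPM. In nocodazole replicate 4 the distant levels were Itga4 at 12.7 CPM, Col20a1 at 5.01 CPM, Lipa at 31.9 CPM and Glb1 at 51.00 CPM.

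The change after nocodazole differed with the DLK inhibitor (edgeR, adjusted p under 0.05 for the difference) in 29 of the 30 genes with the largest changes at 5 CPM or more without overlap, which were chosen on libraries that also enter this difference. For the genes that rose without inhibitor, the log2 change with inhibitor minus that without was -6.04 for Bpifc, -5.18 for Il6ra, -3.85 for Tgif1, -4.75 for Snx33, -2.80 for Fam167a, -3.59 for Kcnj6, -3.57 for Cftr, -3.21 for Arid5a, -3.48 for Afap1l2, -3.46 for Itga5, -3.21 for Lhfpl2, -2.76 for Mamdc2, -2.77 for Fa2h and -2.74 for Slc16a10. For the genes that fell it was 4.02 for Npy2r, 3.97 for Adamts15, 3.04 for Grhl3, 3.08 for Palmd, 2.81 for Oprk1, 2.64 for Prag1, 2.67 for A4galt, 2.53 for Mob3b, 2.70 for P2ry1, 2.40 for Htr1b, 2.07 for Chrm1, 2.36 for Lrfn2, 2.44 for Kcnj3, 2.42 for Scml4 and 2.35 for Vwc2l.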

How the results depend on the processing

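The counts of 3556 rises and 3631 falls were 3586 and 3578 with RLE scaling, 3372 and 3483 without the filter, 3632 and 3504 in the fit of the 8 libraries alone, and 3627 and 3699 with DESeq2. Leaving out 1 library gave 3053 to 3292 rises and 3100 to 3730 falls, with 1151 to 1316 rises and 624 to 791 falls of at least 2-fold. The number of genes whose change differed with the inhibitor lay between 2607 and 5218 when 1 library was left out. Between 82.8% and 89.7% of the called genes kept their call and direction without 1 library. In an alternative chosen after seeing the data, leaving out nocodazole replicates 1 and 2 gave 2728 rises and 2911 falls and kept 69% of the calls. Another scaled and tested protein-coding genes alone (14111 genes) and gave 3135 rises and 2948 falls. In the main fit 2745 of 14106 protein-coding genes rose and 3243 fell, so which direction was the more frequent depended on the scaling. Falls of at least 2-fold numbered 457 there, while the 702 of the main fit count genes of all classes.

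With the replicate number as a block the counts were 3484 and 3620. Libraries with the same number did not deviate together (correlations from -0.1 to 0.069, and 1 of 4 numbers correlated best with itself). The labels do not say what the numbers stand for, and these correlations cannot exclude a pairing that affects few genes.

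Differences in shares of counts without 1 library ran from -3.062 to -2.35 percentage points for protein-coding genes, 0.5322 to 0.6787 for long noncoding genes, 0.0923 to 0.113 for pseudogenes and 0.1006 to 0.1435 for ribosomal protein genes. The exact p exceeded 0.05 in each case because 3 against 4 libraries cannot go below 0.0571, and with all 8 libraries the adjusted p of 0.05 was already not below the threshold. Of the 376 called genes that the naming rule or the text covers, 84 lost their call under at least 1 alternative and none reversed. Family counts of at least 8 that moved by over 1.5 times are given beside the family, except that with protein-coding genes alone 1 small nucleolar RNA host gene and 1 listed long noncoding gene rose, by construction. Counts below 8 moved more often and rest on few genes. Low counts limit the precision of genes under about 5 CPM.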

Other observations

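Among families not described with examples above, single genes passed the test. Trpm8, the menthol and cold sensor of sensory neurons, lay at 64.3, 84.1, 73.5 and 75.7 CPM in vehicle and at 15.2, 12, 45.9 and 32.3 CPM in nocodazole libraries (edgeR adjusted p = 0.014), and Piezo1, a channel opened by membrane stretch, at 12.4, 8.05, 11.1 and 10.2 CPM and at 26.6, 30.6, 13.2 and 19.8 CPM (log2 change 1.11 ± 0.30, SE). The groups did not overlap for either. Mrgprx1, an itch receptor of the Mas-related family, went from 9.6 ± 0.803 to 3.61 ± 1.99 CPM (-1.41), in a family with 2 rises and 2 falls among 4 tested genes. Ptger4, a prostaglandin receptor known to sensitise nociceptors, went from 13.2 ± 2.79 to 2.75 ± 0.158 CPM (-2.26), and Gabrg3, a GABA receptor subunit, from 17.1 ± 2.08 to 7.18 ± 1.75 CPM (-1.25). The calls of Piezo1, Trpm8 and Mrgprx1 ended without nocodazole replicates 1 and 2, at log2 changes of 0.65, -0.93 and -0.90 and an edgeR adjusted p of 0.17, 0.16 and 0.12.

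Other genes of this kind lie in signalling and metabolism. Ptprk, a receptor tyrosine phosphatase that binds itself on neighbouring cells, fell from 23.8 ± 1.57 to 5.68 ± 2.44 CPM (-2.07), and Rab27b, a GTPase of secretory granules, from 55.2 ± 2.22 to 19.4 ± 2.25 CPM (-1.51). Slc16a1, the lactate carrier MCT1, rose from 61.7 ± 8.88 to 223 ± 19.95 CPM (1.85), Adamts1, a matrix protease, from 1.12 ± 0.389 to 5.17 ± 1.43 CPM (2.19), and Rnf213, a giant ubiquitin ligase linked to moyamoya disease, from 21.6 ± 6.07 to 132 ± 31.3 CPM (2.61). Btg1 and Btg2, which restrain proliferation and speed message decay, both rose (1.89 and 2.35).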
